A study of Zea mays and Oryza sativa with 119 samples.

Results

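The genes described here are 150 rice genes whose transcripts were highest in sections 9, 10 or 11 of the third leaf. They were taken from a table of 55986 rice genes by a fixed rule on the values themselves. A gene qualified when its highest section mean of log2(FPKM + 1) lay in section 9, 10 or 11 and its mean FPKM there was at least 10, which 2386 genes met. Those were ranked by that highest mean minus the largest of the means of sections 1 to 6, and the first 150 were kept. FPKM is the number of fragments per kilobase of transcript and scaled to the mapped fragments of its library, so levels of different genes can be set side by side. The rise between the early and the late sections therefore chose the members, and its values are given as a description only.

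Polyadenylated RNA was sequenced from the third leaf of 14-day seedlings of the rice cultivar Nipponbare, an untreated cultivated line. The leaves were divided into 11 sections of 2 cm, with 4 replicates that each pooled about 15 plants, which gave 44 libraries. Seedlings were kept in 12 h of light and 12 h of dark, and no treatment, mutation or transgene separates the groups. The labels number the sections without saying which end of the leaf is section 1.

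A grass leaf grows from a dividing zone at its base, so cells along the blade form a series of ages from young at the base to mature at the tip. Blade cells assemble the photosynthetic machinery as they mature and later recycle nitrogen, iron and chlorophyll, and many of the genes involved follow the daily clock. In these libraries the gene listed as PCNA, the sliding clamp of DNA replication, read 14.6 ± 9.8 FPKM in section 1 (SD, n = 4 in each section, here and below unless stated). It was already down to 0.55 ± 0.05 in section 2, and read 1.39 ± 0.74 in section 11. The gene listed as CYCB, a mitotic cyclin, went the other way at a level too low to test, from 0 in section 1 to 0.76 ± 0.79 in section 6 and 0.50 ± 0.46 in section 11. The gene listed as OSH1 was also too low to test, at 1.22 ± 0.56 in section 1 and 0.38 ± 0.54 in section 11. The genes listed as Rubisco small subunits reached their highest means in sections 7 and 8, and the antenna genes listed as CAB1R and CAB2R in section 5. The photosynthesis genes listed as RCA and PSBS reached theirs in section 9, at 36836 ± 6021 and 3742 ± 370 FPKM. Bulk tissue cannot separate fewer cells of a type from less RNA per cell.

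The files pair no rice identifier with a gene name. Members are therefore called by their rank, a few identifiers are printed, and a name is used only for genes of short lists written for this work from textbook knowledge, given as "listed as". Only 1 of the 150 members is on those lists. All 150 members passed the filter for testing, a mean FPKM of at least 1 over the rice libraries, which 17353 genes passed.

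The 44 libraries summed to between 462278 and 1187130 FPKM, and their depth relative to the median library, read from the steps between low values, ran from 0.73 to 1.46. Tested genes listed at 0 made up 5.69 to 14.8% of a library. Several libraries did not match their labels. Each was correlated with section profiles built from the other 3 replicates over the 17203 tested genes that are not members, and 31 of 44 matched their own section best. In replicate 1, all 6 libraries of sections 2 to 7 matched the next higher section. In replicate 2, the library labelled section 9 matched section 10 (r = 0.945 across genes, against 0.937 with its own section), that labelled section 10 matched section 11 (0.953 against 0.945), and that labelled section 11 matched section 9 (0.940 against 0.924). Across-gene correlations are descriptions, as genes are not independent replicates. All 12 libraries of sections 9 to 11 matched one of these 3 sections, 8 of them their own. Comparisons among sections 9 to 11 are also given without each replicate and without section 11 of replicate 1 or 2. Section 10 of replicate 3 was not left out on its own. Section means, shares of library FPKM and the listed genes are given with all libraries only.

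**Figure D1:**
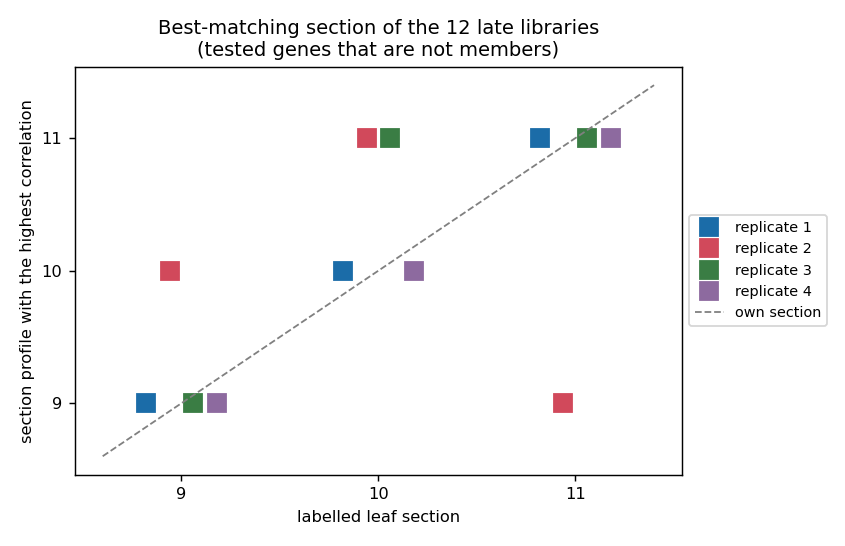
Labelled section (x axis) and best-matching section (y axis) of the 12 libraries of sections 9 to 11, by correlation over 17203 genes that are not members. Squares are libraries, coloured by replicate, and the dashed line marks a match to the own label. The 3 libraries of replicate 2 lie off the line, at 10, 11 and 9, and so does section 10 of replicate 3, at 11.

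Most members were low in the first sections, and their median rose through sections 6 to 9. In section 1 the mean was under 1 FPKM in 82 members and 10 FPKM or more in 16, up to 233 FPKM in rank 108. The median over members of the section mean was 0.88 FPKM in section 1, 1.77 in section 4, 4.55 in section 6, 10.5 in section 7, 14.7 in section 8, 26.1 in section 9, 37.0 in section 10 and 43.3 in section 11. Their mean FPKM in the section that the rule picked ran from 10.1 to 17906 with a median of 46.0, and it exceeded 100 FPKM in 42 members. The difference that ranked them ran from 2.13 to 7.64 log2 units, with a median of 2.59, and exceeded 4 in 10 members. At the lower end of the list, ranks 148, 149 and 150 had differences of 2.15, 2.15 and 2.13, and the next genes outside it 2.13, 2.13 and 2.1, so the list has no natural edge. In 6 members every one of the 24 libraries of sections 1 to 6 was listed at 0.

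In 101 of the 150 members all 12 late libraries lay above all 24 early ones, a pattern that 3.21% of tested genes showed. The rule used this contrast, so the count describes the choice. It was 110 without replicate 1 and 102 to 107 without each other replicate. In the fit of sections 9-11 against 1-6 the members' log2 changes ran from 0.44 to 8.63 with a median of 3.25, against -0.16 over all genes tested. There 11.7% of tested genes were called higher and 22% lower, and nothing is read from the members' calls.

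**Figure D2:**
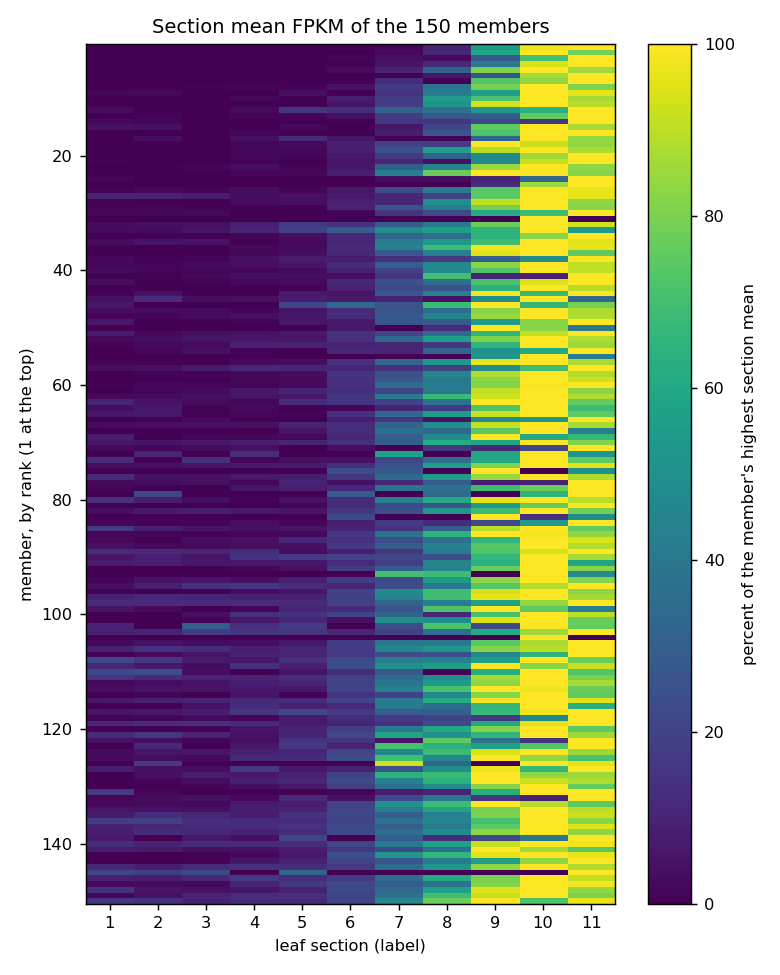
Mean FPKM of each of the 150 members (rows, by rank) in the 11 sections (columns), as a percentage of the member's own highest section mean. Colour is low in sections 1 to 6 and rises through sections 7 and 8, and on this linear scale the highest mean lies in section 10 for 85 members, 11 for 47 and 9 for 18. Ranks 31 and 104 have values in section 10 and in no other late section.

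The member ranked first, LOC_Os12g33120, was listed at 0 in all libraries of sections 1, 2, 3 and 5. In section 4 it read 1.61 FPKM in replicate 3 and 0 in the others, and in section 6 it read 2.41, 4.43, 4.54 and 0 in replicates 1 to 4. Section 8 gave 78.7, 77.8, 67.3 and 48.8 FPKM, a level close together in all 4 libraries. Section 9 gave 187, 754, 341 and 211, section 10 gave 414, 989, 700 and 529, and section 11 gave 584, 351, 880 and 888. Replicate 2 was the highest library in sections 9 and 10 and the lowest in section 11.

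The second, LOC_Os03g62670, was listed at 0 in all 20 libraries of sections 1 to 5. It read 7.13, 5.03, 2.68 and 3.01 FPKM in section 7 and 20.4, 17.6, 22.4 and 15.3 in section 8. In section 9 it read 69.4, 165, 87.3 and 84.6, in section 10 it read 113, 206, 211 and 150.8, and in section 11 it read 160, 65.1, 162 and 149. Replicate 2 was again the lowest library of section 11, and the other 3 lay close together.

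In ranks 3 and 4 replicate 2 was again the highest library in sections 9 and 10 and the lowest in section 11. In rank 6 it was highest in section 9 and lowest in section 11, and replicate 3 was highest in section 10. Rank 3 read 59.5, 173, 47.9 and 57.5 FPKM in section 9, 86.5, 430, 250 and 85.8 in section 10, and 354, 88.1, 396 and 375 in section 11. Rank 4 read 41.5, 88.2, 38.1 and 33.4 in section 9, 78.0, 203, 95.6 and 78.9 in section 10, and 149, 61.4, 144 and 131 in section 11. Rank 6 read 14.1, 39.2, 11.0 and 9.08 in section 9, 26.9, 83.0, 108 and 22.1 in section 10, and 79.0, 27.0, 83.4 and 89.5 in section 11. In all 3 the section 11 value of replicate 2 lay nearer to the section 9 values of the other replicates than to their section 11 values. The nearest single value of the other replicates lay in section 10 each time, at 86.5, 78.0 and 26.9 FPKM for ranks 3, 4 and 6. Rank 5 had a flatter course, with 263, 376, 482 and 170 FPKM in section 9 and 299, 224, 465 and 370 in section 11, and its sections overlapped.

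**Figure D3:**
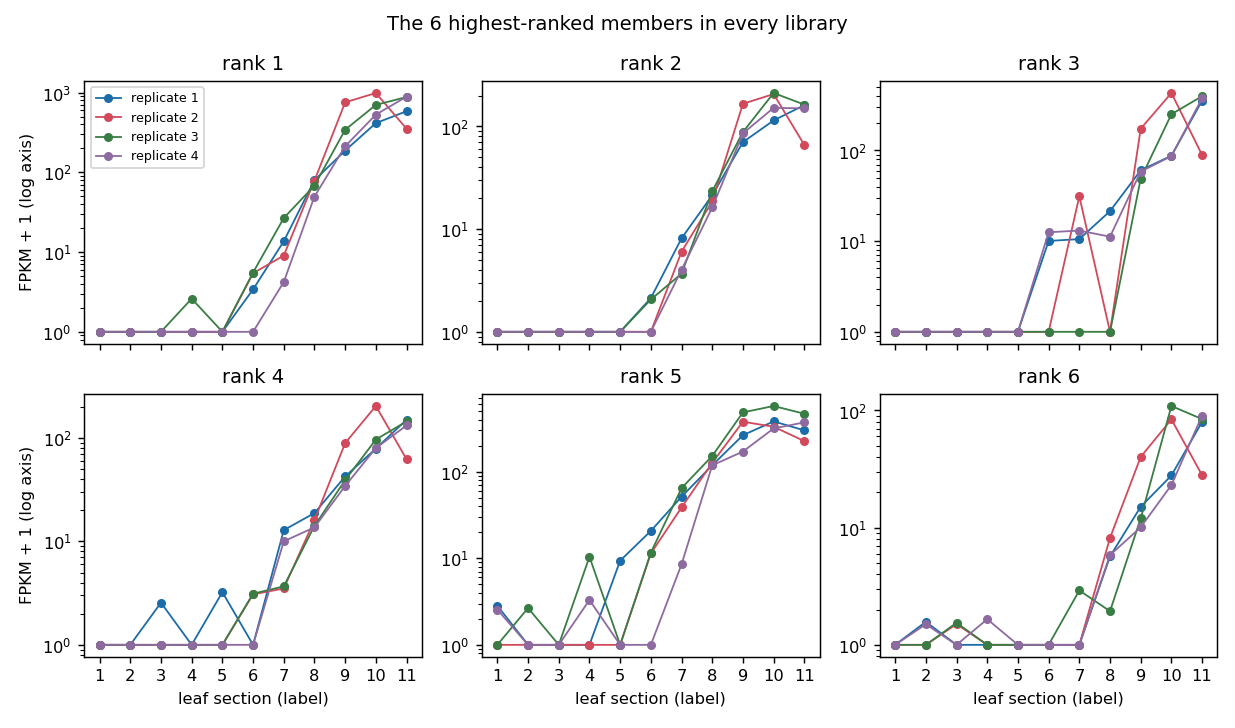
FPKM + 1 (log axis) of ranks 1 to 6 in all 44 libraries by labelled section, with 1 line per replicate. The lines rise from section 6 or 7 onward, and replicate 2 turns down in section 11, for example to 351 FPKM in rank 1 where the other replicates read 584 to 888.

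The most abundant member was rank 37, with 10.6 FPKM in section 1, 2009 ± 761 in section 6, 7773 ± 2030 in section 8, 17194 ± 8775 in section 9, 17906 ± 11205 in section 10 and 13553 ± 1878 in section 11. Its section 10 libraries read 15517, 8940, 34216 and 12952, so the spread of sections 9 and 10 came mainly from replicate 3, at 29519 and 34216. All members together made up 0.18 ± 0.06% of the summed FPKM of a library in section 1, 1.60 ± 0.12% in section 8 and 4.09 ± 1.07% in section 10. Without rank 37 these shares were 0.18 ± 0.06%, 0.86 ± 0.12% and 2.15 ± 0.62%. The next in level, rank 33 and rank 108, had highest section means of 2614 and 1060 FPKM.

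The 1 member on a list was rank 95, LOC_Os01g08700, listed as GIGANTEA, a protein of the daily clock. It read 1.29, 1.73, 1.11 and 1.46 FPKM in section 1 and then stayed between 3.5 and 5.92 in the libraries of sections 4 and 5. In section 8 it read 19.3, 17.8, 6.94 and 9.94, in section 9 it read 22.7, 41.1, 11.2 and 22.9, and in section 11 it read 38.7, 27.9, 37.4 and 29.3. All 4 libraries of section 11 lay above those of section 8. From section 9 to 11 its log2 change was 0.55 ± 0.36 (SE) and did not pass (limma, Benjamini-Hochberg adjusted p = 0.646).

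Of the 5 tested clock genes 4 were called higher in sections 9-11 against 1-6 (11.7% of tested genes were), with a median log2 change of 1.12, and the one listed as PRR37 was not called. GIGANTEA is 1 of the 4 and was chosen on this contrast. The gene listed as LHY, a morning-phased transcription factor of the clock, went from 290 ± 33 FPKM in section 1 to 1018 ± 130 in section 6 and 1171 ± 163 in section 11. The one listed as PRR95, a pseudo-response regulator, went from 1.56 ± 0.84 to 16.6 ± 4.0 and 29.4 ± 11.3 FPKM in the same sections. Both were already well above their section 1 level in section 6.

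None of the listed genes of leaf senescence is a member. Of 6 tested genes of chlorophyll breakdown, 1 was called higher and 1 lower in sections 9-11 against 1-6, with a median of 0.47. The gene listed as PAO, the oxygenase that opens the chlorophyll ring, rose from 3.92 ± 1.62 FPKM in section 1 to 38.8 ± 4.9 in section 11, which is 2.28 ± 0.13 (SE) on the log2 scale between late and early sections (limma, adjusted p = 1.40e-18). The gene listed as NOL, a subunit of chlorophyll b reductase, fell by 2.23 on the log2 scale. The genes listed as SGR, which starts chlorophyll removal from its complexes, and NAP, a senescence transcription factor, stayed low. SGR read 4.63 ± 3.53 FPKM in section 11, and NAP had a highest section mean of 1.16 FPKM and was too low to test.

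Of 2 cytosolic glutamine synthetases, which make glutamine, the one listed as GS1;2 rose by 2.47 ± 0.23 (SE), from 2.69 ± 1.85 FPKM in section 1 to 57.8 ± 7.7 in section 11. The one listed as GS1;1 changed by -0.84 ± 0.09 (SE) and was under the size for a call. Of 7 photosynthesis genes 4 were called higher and 1 lower. None of 3 tested jasmonate genes was called higher and 1 fell, and of 2 tested defence genes 1 fell, the one listed as WRKY45, by 2.62. Of 2 tested genes of water deficit, the one listed as SALT fell by 4.45. The single tested gene of cell division was not called, and none of the 8 diterpenoid phytoalexin genes reached the level for testing.

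Whether the members chosen in some replicates behaved alike in a replicate that the choice did not use was read by repeating the rule on 3 replicates. Without replicates 1, 2, 3 and 4 in turn, the rule returned 127, 131, 125 and 125 of the 150 members. In the replicate left out, the highest value lay in section 9, 10 or 11 for 27.24%, 24.69%, 25.04% and 21.93% of all tested genes. Of the 150 genes then chosen, 134, 140, 137 and 142 had their highest value there. The highest late value was at least 1 log2 unit above the highest early value in 134, 137, 137 and 144 of them, against 5.43%, 6.35%, 7.21% and 6.82% of all tested genes in the same replicates. The median difference in the replicate left out was 2.1, 2.56, 2.72 and 2.70 log2 units, lowest in replicate 1. The replicate 1 libraries of sections 2 to 7 matched the next section, and whether this bears on the lower value was not tested.

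The median member level was highest in replicate 1 in sections 5 to 7. On the log2(FPKM + 1) scale replicate 1 read 2.18 in section 5, and replicates 2, 3 and 4 read 1.04, 1.25 and 1.17. In section 6 it was 2.90 against 2.19, 2.13 and 2.07, and in section 7 it was 3.72 against 3.23, 2.98 and 3.30. In section 8 the 4 replicates read 4.21, 4.19, 3.85 and 3.74. Counted within each replicate, 63, 63, 41 and 43 members had reached 50% of their highest value by section 8, so replicate 2 was no later than replicate 1 by that measure. In section 4 replicate 3 stood apart, at 1.71 against 1.01, 0.71 and 0.81.

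**Figure D4:**
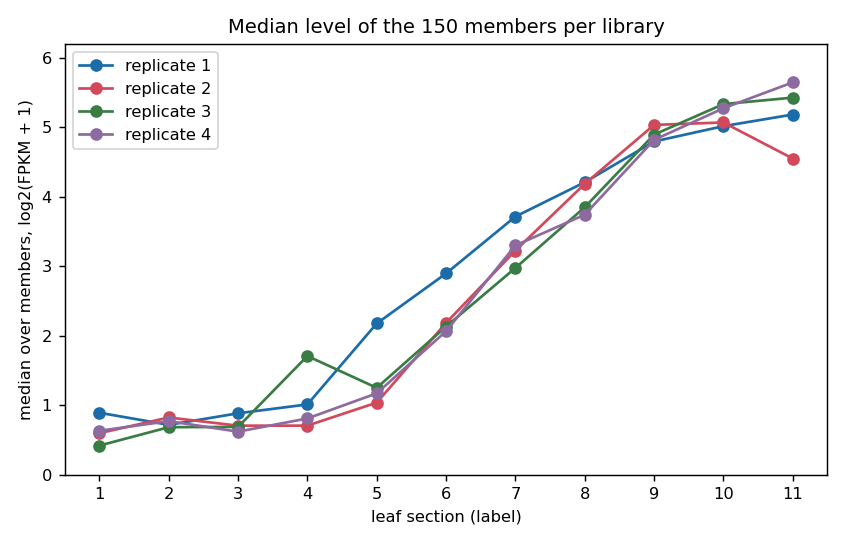
Median over the 150 members of log2(FPKM + 1) in each library, by labelled section, with 1 line per replicate. Replicate 1 lies above the others in sections 5 to 7, at 2.18, 2.90 and 3.72, and replicate 2 falls to 4.55 in section 11 where the others read 5.18 to 5.65.

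Most members crossed 50% of their highest section mean late. On linear FPKM 10 members did so first in section 7, 40 in section 8, 75 in section 9, 16 in section 10 and 9 in section 11. By section 8 the count was thus 50, and 40 to 60 when each replicate was left out. On the log2 scale, where 50% of the highest value is a low level, 120 had crossed by section 8.

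Which of sections 9, 10 and 11 was highest was not used to choose members, and it rested on the library labelled section 11 replicate 2. With all libraries, and on the log2(FPKM + 1) means of the rule, 90 members (60.0%) were highest in section 10, 45 (30.0%) in section 11 and 15 (10.0%) in section 9. Among the other 2236 genes that met the first conditions of the rule these shares were 40.3%, 26.9% and 32.8%. Without that 1 library, 58 members were highest in section 10 and 79 in section 11. Within replicates, 76, 14, 52 and 80 members were highest in section 11 in replicates 1 to 4, and 33, 83, 69 and 55 in section 10. Section 11 thus held more members than section 10 in replicates 1 and 4, and fewer in replicates 2 and 3.

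The members' change from section 9 to section 11 had a median of 0.18 on the log2 scale, with 100 positive and 48 negative, against a median of 0.00 over all tested genes. By replicate the median was 0.38, -0.39, 0.35 and 0.52, and 103, 29, 95 and 116 members were higher in section 11. Of all 17353 tested genes 5 were called higher in section 11 (0.0288%) and 15 lower (0.0864%), where a call needed a limma adjusted p below 0.05 and a change of 1 or more log2 units. Of the members 2 were called higher and 0 lower, and at an unadjusted p under 0.05 these counts were 25 and 2, beside 788 and 1048 of all genes. The choice bears on this comparison too, because a member had to reach 10 FPKM in its highest section alone, and 30 members were under 10 FPKM in section 9. The members' calls are therefore given as a description. With the replicate number as a block, 4 members and 100 of all genes were called.

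The 2 were rank 24, LOC_Os03g22230, and rank 25, LOC_Os06g06320. LOC_Os03g22230 read 4.61, 0, 2.47 and 0 FPKM in section 9, 0, 17.4, 5.76 and 1.11 in section 10, and 23.4, 2.27, 19.5 and 26.1 in section 11. Its log2 change was 2.79 ± 0.59 (SE). LOC_Os06g06320 read 0, 4.07, 3.01 and 0 in section 9, 3.39, 18.1, 11.2 and 14.8 in section 10, and 18.5, 1.38, 21.0 and 14.7 in section 11, a change of 2.41 ± 0.46. Their section 9 means were 1.77 FPKM each, so their place among the members came from later sections. In both, section 11 overlapped section 9 only through replicate 2, and both calls were lost without replicate 1, 3 or 4 and after quantile normalization. Both were also lost in a fit to the compared sections alone and without section 11 replicate 1. The call of LOC_Os03g22230 was lost as well with a pseudocount of 0.1 and without the filter.

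Without replicate 2, 14 members were called higher in section 11 than in section 9 and 0 lower, beside 98 (0.565%) and 249 (1.43%) of all tested genes. The median change of all members was then 0.43. The choice bears on these calls too, because the rule used the highest late mean of each member. The members' calls and their adjusted p-values are therefore given as a description. Of the 14, 9 had a section 9 mean under 10 FPKM over all 4 replicates. Rank 14 is among these, and its mean was 10.9 FPKM without replicate 2. Ranks 4, 6, 57, 98 and 107 had section 9 means above 10 FPKM with and without replicate 2. Rank 6 read 14.1, 11.0 and 9.08 FPKM in section 9 and 79.0, 83.4 and 89.5 in section 11 in the 3 other replicates (log2 change 2.80 ± 0.46, limma adjusted p = 0.00102). Rank 4 read 41.5, 38.1 and 33.4 against 149, 144 and 131, a change of 1.88 ± 0.45 (adjusted p = 0.0208). Rank 98, named after its values were seen, read 113, 84.8 and 111 against 253, 207 and 273, a change of 1.24 ± 0.33 (adjusted p = 0.0399). Rank 14 read 2.00, 19.4 and 11.3 against 33.6, 70.6 and 58.3, with section 10 as low as 0 to 10.8 in the 4 libraries. The cause of the different order in replicate 2 was not tested.

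Between neighbouring late sections the fit without a replicate block made no call. The choice bears on these comparisons too. The highest late mean, which the rule used, lay in section 10 for 90 members, in section 11 for 45 and in section 9 for 15. The members' changes and counts are therefore given as a description. In section 10 against 9, 0 of 17353 genes were called (0%), and the members' median change was 0.32, with 127 positive and 22 negative. At an unadjusted p under 0.05, 19 members were higher and 2 lower, as were 444 and 627 of all genes (limma, the only tool run). With the replicate block 5 genes were called, 1 higher and 4 lower, and 1 higher and 1 lower of them were members. In section 11 against 10 the calls were again 0 (0%), the median was -0.15 and 51 members were positive. The counts at an unadjusted p under 0.05 were 7 higher and 5 lower among members, and 349 and 298 over all genes. Without replicate 2, section 10 against 9 gave 1 member higher and 0 lower, beside 2 (0.0115%) and 1 (0.00576%) of all genes. Section 11 against 10 then gave 3 members higher and 1 lower, beside 7 (0.0403%) and 5 (0.0288%), and a median of 0.03.

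In some members few libraries held most of the late FPKM. Over 50% of the summed FPKM of the 12 late libraries came from 1 library in 6 members, which were picked out after their values were seen. In 4 of them that library was section 11 replicate 1. Rank 77 read 565 FPKM there and 18.4, 3.66 and 12.8 in the other libraries of section 11. Rank 122 read 339 there against 18.6, 1.23 and 15.2, and rank 132 read 185 against 7.25, 0.69 and 3.39. Rank 41 read 112 there, 13.9, 0 and 48.0 in the others. All 4 were also highest in replicate 1 in section 8, at 123, 250, 54.1 and 114 FPKM for ranks 77, 122, 132 and 41.

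**Figure D5:**
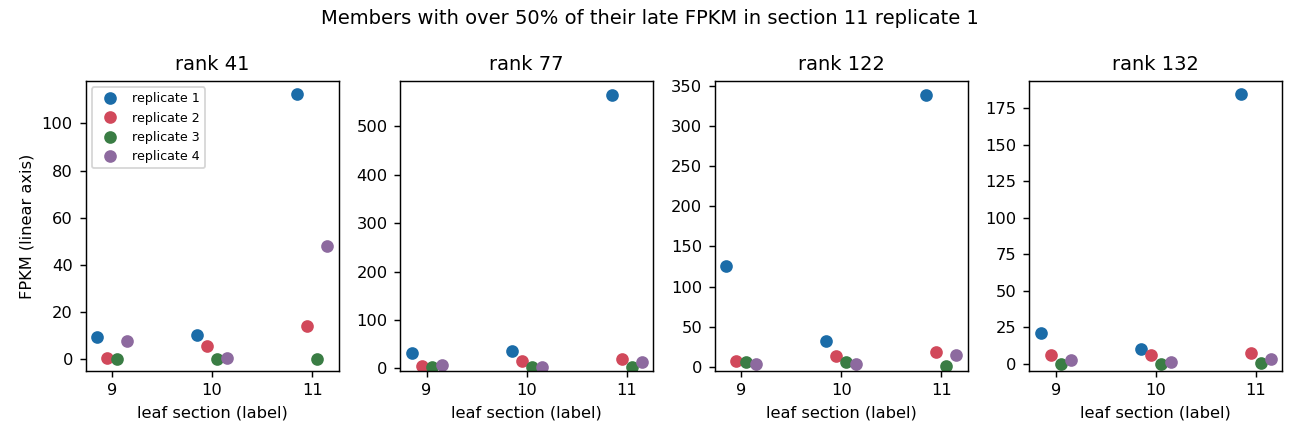
FPKM (linear axis) of ranks 41, 77, 122 and 132 in the 12 libraries of sections 9 to 11, coloured by replicate. Replicate 1 of section 11 stands above the other libraries, at 112, 565, 339 and 185 FPKM, and section 9 and 10 values of ranks 41, 77 and 132 reach at most 35.1 FPKM.

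The other 2 were listed above 0 in no late library but a pair. Rank 31 read 97.3, 0, 0 and 77.2 FPKM in section 10 and rank 104 read 0, 0, 26.4 and 25.3, and both were at 0 in every library of sections 8, 9 and 11. In 27 members a late section held a library listed at 0 beside one of 10 FPKM or more. Rank 33 read 0, 5454, 859 and 4143 FPKM in section 10. Rank 18 read 3.29, 911, 0 and 1512 in section 9, 0, 5.33, 2227 and 0 in section 10 and 0, 0, 3.22 and 2030 in section 11. A 0 in an FPKM table can be an estimate that failed, so these members are given by library and their means should be read with that limit.

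The identifiers carry a chromosome number and rise in order along it. By that number 32 members (21.3%) lay on chromosome 1, which holds 14.1% of the tested genes, and 14 (9.33%) on chromosome 12, which holds 5.34%. The other chromosomes held 6 to 16 members each. In 14 pairs, 2 members lay within 15 identifiers of each other, which involved 25 members, and 7 of the pairs lay at most 4 apart. Ranks 1 and 3 were 3 identifiers apart on chromosome 12, with highest section means of 676 and 303 FPKM, both in section 11. On the same chromosome ranks 7 and 90 were next to each other. On chromosome 1 ranks 29 and 34 were 2 apart, at 171 and 201 FPKM, and so were ranks 4 and 149. On chromosome 7 ranks 23 and 27 were 4 apart, but rank 27 started from 53.0 FPKM in section 1 and rank 23 was at 0 there. On chromosome 2 a run of 4 members, ranks 53, 142, 112 and 56, was highest in section 10 throughout, at 27.7, 176, 559 and 277 FPKM. How fragments shared between similar genes were divided is not given in the sources used here, so values of close copies in such runs are uncertain. No test of the positions was made.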

How the data were processed

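Strand-specific libraries of polyadenylated RNA were made from TRIzol extracts of 44 rice leaf samples, per the labels' protocols. The deposited values are FPKM per gene, made by the authors. TopHat2 2.0.10 and Cuffdiff 2.1.1 are named in the submitters' processing notes, and the rice genome build is not given in the sources used here. Fragment counts are not in the table, so the depth of a library is known only in relative terms, from the steps between low FPKM values.

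Values were taken as log2(FPKM + 1), which understates changes of low genes. limma 3.58.1 (R 4.3.3) with an intensity trend was fitted to all 44 libraries and to genes with a mean of at least 1 FPKM, with Benjamini-Hochberg adjustment over all 17353 of them. Calls needed an adjusted p under 0.05 and a change of at least 1 log2 unit. The fit was tested on simulated data with independent normal noise around the section means. That noise held no shift shared by the genes of a library, so the simulation does not cover calls that depend on single libraries. Sections of 1 replicate came from the same pooled plants, by the series' design text. The median correlation of deviations was 0.108 between libraries of the same number and -0.0371 between others, from -0.0446 to 0.238 within sections 9 to 11. Replicates are separate pools.

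Members and lists were chosen with earlier results of these data known. Named were ranks 1 to 15 where informative, the members with the highest means, list members and those called between sections 11 and 9. Members named for single libraries or for position were chosen after their values were seen. Gene products were not used, and maize libraries were not analysed here. Alternatives were the pseudocount, the filter, quantile and upper quartile scaling, the replicate block, a fit to the compared sections and leaving out libraries.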

Additional observations from a re-analysis of the deposited data

Results flagged for a closer look

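In 14 of 80 groups of 4 libraries that were examined, 1 library lay far from the other 3 by Dixon's criterion. Chance meets it in about 1 of 20 groups that are independent and normally distributed. These groups share libraries and mostly hold linear FPKM, so the count cannot be set against that rate.

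Of these, 8 were libraries of replicate 2. In section 11 it read 65.1 FPKM for rank 2 (others 149 to 162), 88.1 for rank 3 (354 to 396), 27.0 for rank 6 (79.0 to 89.5) and 10741 for rank 37 (14405 to 14630), below the others each time. In section 9 it read 173 for rank 3 (47.9 to 59.5), 88.2 for rank 4 (33.4 to 41.5) and 39.2 for rank 6 (9.08 to 14.1), above the others each time. In section 10 it read 203 for rank 4 (78.0 to 95.6). The cause was not tested.

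Replicate 3 read 45.8 FPKM for rank 9 in section 9 (others 6.11 to 11.0), 141 for rank 11 in section 10 (61.3 to 74.1) and 2475 for rank 108 in section 10 (453 to 720). Replicate 1 read 41.4 for rank 15 in section 9 (13.2 to 17.3). Replicate 4 read 60.6 for rank 7 in section 9, where the other 3 were listed at 0. The median member level in section 6 was 2.90 on the log2 scale in replicate 1 (others 2.07 to 2.19).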

How the results depend on the processing

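The members' median change of section 11 against 10 turned from -0.15 to 0.03 without replicate 2 and 0.07 without section 11 replicate 2, and was negative under the other alternatives. The other 2 medians were positive under every alternative run. Genes called in section 11 against 9 numbered 20, and became 45 with a pseudocount of 0.1, 0 after quantile normalization, 100 with the replicate block and 5 in a fit to the compared sections. They ran from 0 to 347 as each replicate was left out (0 without replicates 1, 3 or 4), and were 0 without section 11 replicate 1 and 322 without section 11 replicate 2, alternatives chosen after seeing the data. Members called there numbered 2, and became 1 with that pseudocount, 0 after quantile normalization, 1 without the filter, 4 with the block, 0 in the fit to the compared sections, 0 to 14 without a replicate, and 0 and 16 without those libraries. In section 10 against 9 the counts of 0 became 16, 3, 5 and 3 genes with the pseudocount, no filter, the replicate block and the compared sections, and 1, 1 and 2 members with the first 3. Without a replicate they were 0 to 4 genes and 0 to 2 members, and without section 11 replicate 1 or 2 they were 2 and 9 genes and 1 member each. In section 11 against 10 the counts of 0 became 1, 3 and 2 genes with the pseudocount, no filter and the compared sections, 0 to 12 genes and 0 to 4 members without a replicate, and 6 genes and 2 members without section 11 replicate 2. The replicate block left 0 calls in section 11 against 10, and gave 5866 in place of 5850 in sections 9-11 against 1-6. Members highest in section 10 numbered 90, 61 to 97 without a replicate and 58 without section 11 replicate 2, where 79 were highest in section 11. Members past 50% by section 8 numbered 50, and 120 on the log2 scale. The rule returned 136 of the 150 members with the pseudocount, 137 after quantile normalization, 109 with a minimum of 20 FPKM and 125 to 131 without a replicate. The causes were not tested. Maize counterparts were not run. Unknown depth limits what a value of 0 shows.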
